A study of Mus musculus with 18 samples.

Results

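HSPC1 is the code that the deposited annotation gives to the hematopoietic stem and progenitor cell (HSPC) cluster of fetal bone marrow (FBM) on embryonic day (E) 16.5. Its members were all cells of the 2 E16.5 hematopoietic progenitor (HP) libraries with exactly this code, 33 of 560 cells (5.89%, exact binomial 95% interval 4.09 to 8.18%) in replicate 1 and 165 of 4752 (3.47%, 2.97 to 4.03%) in replicate 2. These 198 of 5312 E16.5 HPs were compared with the 5114 other cells of the same libraries, which carried 16 other cluster codes. The whole series held 56201 cells. Intervals cover counting error only.

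The study followed murine bone marrow from late gestation to the adult by single-cell RNA-Seq with antibody tags (CITE-Seq), which reads mRNA and surface antibody signal in the same cell. All mice were C57B6/J, and the HPs were cells sorted as Lineage- and Kit+ at E16.5 (2 libraries), E18.5, postnatal day (P) 0 and adulthood (1 library each). Each library was made from several pooled animals, and the study states that none of these experiments was repeated. Differences between the 2 E16.5 libraries may therefore be technical. The codes came from clustering on mRNA, so that every mRNA difference between HSPC1 and the rest of E16.5 is given as a description without a test.

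Hematopoietic stem cells give rise to multipotent progenitors, and progenitors that carry the Flt3 receptor feed the lymphoid lineages and dendritic cells (DCs). DCs take up antigen and present it on major histocompatibility complex (MHC) class II, a pair of chains held together during assembly by the invariant chain Cd74. Conventional DCs fall into cDC1s, which depend on Irf8 and Batf3, and cDC2s, which use Irf4 and carry C-type lectins, whereas plasmacytoid DCs (pDCs) are the interferon producers. In the mouse fetus, the bone marrow is seeded by cells from the liver while the marrow cavity is still forming.

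HSPC1 held 834324 unique molecular identifiers (UMIs, single counted mRNA molecules) in replicate 1 and 3204641 in replicate 2, with medians of 20866 and 17647 per cell against 23330 and 18875 in the other E16.5 HPs. A part of replicate 1 shared its cell barcodes with other libraries: 330 of its 560 barcodes also occurred in the adult library, 153 in the P0, 46 in the E18.5 and 1 in the other E16.5 library. In HSPC1 this touched 20 of the 33 cells of replicate 1 and 0 of the 165 cells of replicate 2. The adult cell with the same barcode held a median of 2.17% (2.02 to 3.75%) as many UMIs as its E16.5 counterpart. What is given here without shared barcodes leaves out every HP cell whose barcode also occurred in another HP library. This took out 333 of all 560 cells of replicate 1 and 21 of 4752 of replicate 2, and kept 13 HSPC1 cells with 180994 UMIs in replicate 1. The 13 cells kept had a median of 13829 UMIs, against 29679.5 UMIs in the 20 cells taken out. The remaining set was thus shallower. The same step took out 16 of the 388 (E18.5), 5 of the 1505 (P0) and 4 of the 629 (adult) later HSPC cells. Both sides of each comparison therefore changed. A doublet caller marked 0 of 198 HSPC1 cells, but it marked under 0.5% of either library and has therefore not worked. The study had already removed the cells with the most genes and UMIs.

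The genes by which the cluster was known showed it apart from the rest in both libraries. Levels are given in CPM, the UMIs of a gene per 1000000 UMIs summed over the cells of a cluster, and folds as HSPC1 over the other E16.5 HPs of the same library. Flt3, the receptor of Flt3 ligand, reached 127 CPM (Poisson 95% interval 104 to 154) in replicate 1 and 56.5 CPM (48.5 to 65.3) in replicate 2, against 3.12 and 1.46 CPM in the rest. Hoxa9, a homeobox factor of immature progenitors, stood at 34.8 and 40.3 CPM in HSPC1 against 0.913 and 1.04 CPM in the rest. Both genes were thus higher by close to 40-fold (40.7 and 38.8 for Flt3, 38.1 and 38.8 for Hoxa9). Cd209a, a C-type lectin of DCs and monocyte-derived cells, stood at 182 CPM in replicate 1 and only 22.5 CPM in replicate 2, against 1.67 and 0.140 CPM in the rest. Its level in HSPC1 thus differed between the 2 libraries far more than that of Hoxa9. Without shared barcodes, replicate 1 had 171 CPM of Flt3, 38.7 CPM of Hoxa9 and 437 CPM of Cd209a.

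**Figure D1:**
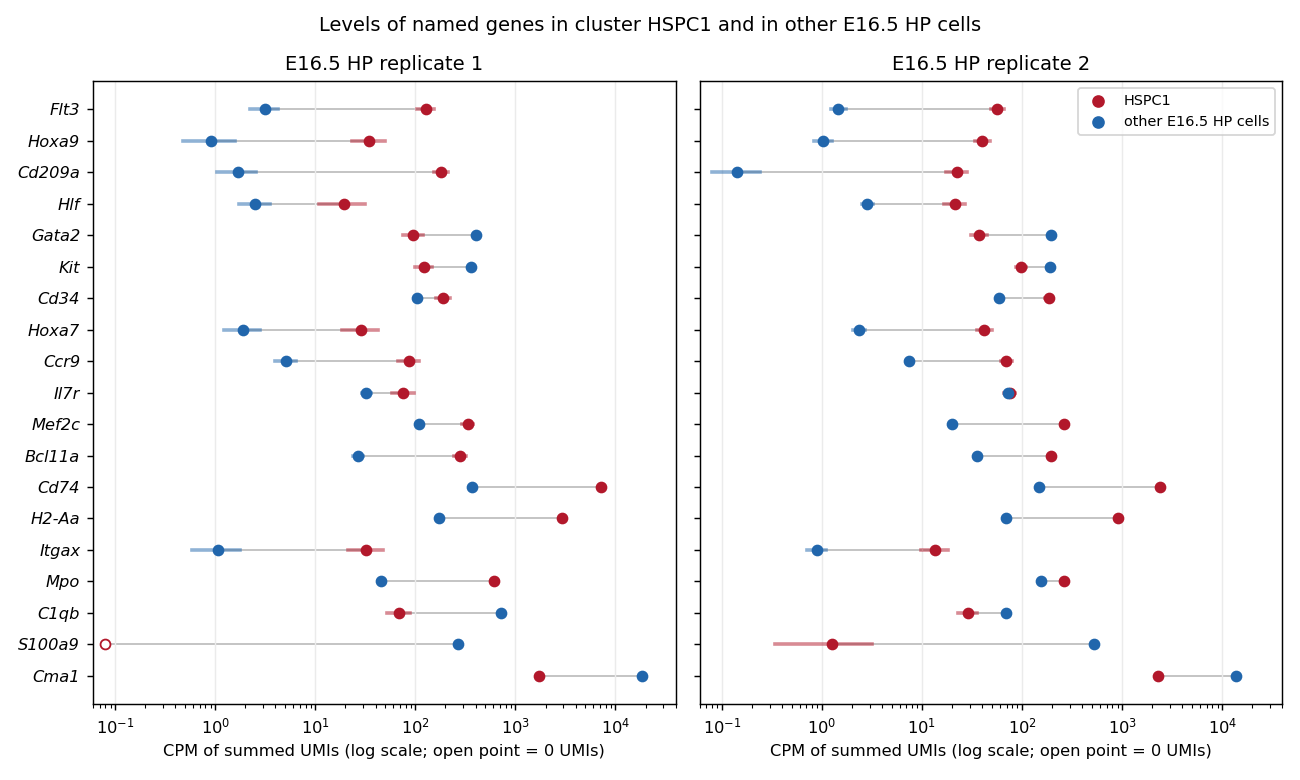
Levels of 19 genes in cluster HSPC1 (red) and in the other E16.5 HPs (blue) of replicate 1 (left) and replicate 2 (right), in CPM on a log axis. Bars are Poisson 95% intervals of the summed UMIs and the open point marks 0 UMIs. Flt3, Hoxa9, Cd209a, Cd74 and H2-Aa lie to the right of the rest in both libraries, Gata2, Kit, C1qb, S100a9 and Cma1 to the left.

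Across all genes with a mean of at least 10 CPM, 291 of 7897 (3.68%) were at least 2-fold higher in HSPC1 in both libraries and 268 (3.39%) at least 2-fold lower. That mean was taken over HSPC1 and the rest in both libraries. A gene could thus pass through its level in HSPC1 alone, and a gene low on both sides did not enter. Without shared barcodes the counts were 369 and 224. The median log2 fold over all 7897 genes was 0.16 in replicate 1 and 0.05 in replicate 2. The members of each marker list below are counted by the same rule, and a list member that stayed under 10 CPM on average was not counted.

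The label HSPC was only partly met by the genes of stem cells. Of the 12 genes of the stem cell list, 4 passed the minimum, and 2 of these were higher and 1 lower. Among the higher genes was Hlf, a transcription factor of long-term stem cells. Hlf stood at 19.2 and 21.2 CPM in HSPC1 against 2.51 and 2.84 CPM in the rest. Gata2, a factor shared by stem and mast cells, was lower, at 94.7 and 37.1 CPM against 401 and 196 CPM. Defining stem cell genes were close to absent: Mecom, Procr and Slamf1 had 0 UMIs in replicate 1 and 6, 4 and 4 UMIs in replicate 2, and Hoxb5 had none in either. Without shared barcodes 0 genes of the list were counted as higher, and Hlf was at 0 UMIs in all 13 cells of replicate 1.

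Genes of broader immature progenitors were less uniform. Of 10 such genes that passed the minimum, 3 were higher, and the summed level of the list was 1.48 and 1.32 times that of the rest. Those 3 were Hoxa9, its neighbour Hoxa7 (28.8 and 42.1 CPM, 15.1-fold and 18.0-fold) and Egfl7, a secreted factor of endothelium and early progenitors (155 and 180 CPM, 4.68-fold and 4.20-fold). Kit, which encodes the receptor used for the sort, was at 122 and 97.7 CPM in HSPC1 and at 362 and 191 CPM in the rest. Cd34, a sialomucin of progenitors, was at 189 and 185 CPM against 105 and 58.8 CPM. The 2 libraries thus gave the same side for each of the genes named, with Kit below the mast-rich remainder of the sort and Cd34 above it.

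Lymphoid-primed genes stood differently against the rest in the 2 libraries. Of 11 genes tested in this list, 3 were higher in both: Flt3, the thymus-homing chemokine receptor Ccr9 (86.3 and 69.9 CPM, 16.9-fold and 9.32-fold) and Lax1, an adaptor of lymphocyte receptors (32.4 and 24.0 CPM, 20.2-fold and 2.46-fold). Il7r, the interleukin-7 receptor chain, had nearly the same level in both libraries of HSPC1, 75.5 CPM, but the rest had 32.4 CPM in replicate 1 and 73.1 CPM in replicate 2. The summed level of the list was 5.95 times that of the rest in replicate 1 and 0.973 times in replicate 2. In HSPC1 itself the list summed to 782 and 624 CPM, and in the rest to 131 and 641 CPM. The 2 libraries thus differed more in the rest than in HSPC1. The rest of replicate 2 held 2141 cells of T cell clusters, and that of replicate 1 held 18. Rag1, which cuts antigen receptor genes, was at 7.19 and 20.9 CPM in HSPC1, and Dntt, the polymerase that adds bases at the cut ends, had 0 UMIs in both libraries.

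After the 3 marker genes, MHC class II and its partners were far above the rest. Of 11 DC genes that passed the minimum, 10 were higher in both libraries. The list summed to 7.40 and 6.40 times the level of the rest. The marker gene Flt3 was among those 10, and it also counts in the lymphoid-primed list above and the regulator list below. Cd74 had 7104 and 2397 CPM in HSPC1 against 367 and 146 CPM in the rest. H2-Aa, the alpha chain of one class II molecule, had 2952 and 900 CPM against 172 and 68.5 CPM, and its beta chain H2-Ab1 had 2504 and 803 CPM against 152 and 79.3 CPM. H2-Eb1, the beta chain of the other class II molecule, had 2361 and 771 CPM against 120 and 49.4 CPM. The peptide-loading chains H2-DMa and H2-DMb1 were 10.2-fold and 13.2-fold, and 13.7-fold and 7.71-fold higher. Ciita, the coactivator that switches on class II transcription, was at 74.3 and 25.3 CPM against 4.34 and 1.76 CPM. Each of these genes was above the rest in both libraries, and its level in HSPC1 was lower in replicate 2. Without shared barcodes 10 members were higher, and Cd74 stood at 16034 CPM in replicate 1. With every other E16.5 cluster given the same weight, 6 members were higher.

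Class II promoters are known for a set of short boxes that Ciita reads through bound factors, among them the Y box, an inverted CCAAT motif. It is shown because these genes moved together. Among 5 class II genes searched for TGATTGG on both strands of RefSeq promoter windows (GRCm38.p6, 250 bases before to 50 after the start), 4 had a window and 3 held the motif, as did 7.82% of all 32851 windows. A match is a description of the letters and not of binding. The 60 bases around it are printed 5′ to 3′ on the strand of the gene, with the motif in capitals, for H2-Aa at chr17:34287854-34287913 (minus strand, motif starting 50 bases before the start), H2-Eb1 at chr17:34305766-34305825 (plus strand, 61 bases) and H2-DMb1 at chr17:34153088-34153147 (plus strand, 63 bases).
H2-Aa: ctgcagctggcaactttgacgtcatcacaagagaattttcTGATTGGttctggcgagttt
H2-Eb1: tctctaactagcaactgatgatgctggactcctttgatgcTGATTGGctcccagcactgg
H2-DMb1: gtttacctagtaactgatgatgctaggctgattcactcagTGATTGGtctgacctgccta

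Genes of each DC subset were among those higher in HSPC1. Summed over all list members, with no minimum, the cDC2 list was at 2.87 and 2.58 times the rest. The cDC1 list was at 1.93 and 3.86 times and the pDC list at 1.72 and 1.80 times. The counts that follow cover only genes that passed the minimum, which includes the level of HSPC1 itself. Of 8 cDC2 genes tested, 5 were higher: Cd209a, the lectins Clec10a (116 and 14.4 CPM, 10.4-fold and 5.61-fold) and Mgl2 (101 and 9.99 CPM, 27.6-fold and 3.5-fold), the integrin chain Itgam (93.5 and 28.4 CPM) and lymphotoxin beta, Ltb (101 and 213 CPM). All but Ltb had their higher level in replicate 1. Itgax, which encodes CD11c, was 30.4-fold and 15.2-fold higher, at 32.4 and 13.4 CPM. Of 4 cDC1 genes tested, 2 were higher, namely Batf3 (45.5 and 59.9 CPM against 8.60 and 4.99 CPM) and Wdfy4, which serves cross-presentation (101 and 54.3 CPM against 29.5 and 23.0 CPM). Among cDC1 surface markers, Xcr1 had 0 UMIs in both libraries, and Clec9a had 0 and 5 UMIs (0 and 1.56 CPM). The adhesion molecule Cadm1 had 10 and 17 UMIs. Irf8 was 1.16-fold and 6.29-fold higher, at 73.1 and 152 CPM. Of 7 pDC genes tested, 3 were higher, the lectin Siglech (27.6 and 8.11 CPM), the mitochondrial subunit Cox6a2 (63.5 and 15.6 CPM) and Runx2 (61.1 and 52.4 CPM).

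Transcription factors that guide DC fate were read from a list of 20 regulators. Of 18 tested, 6 were higher. Besides Flt3 and Batf3 these were Mef2c (333 and 265 CPM, 3.04-fold and 13.3-fold) and Bcl11a (279 and 195 CPM, 10.4-fold and 5.52-fold), both needed by lymphoid and DC progenitors, and the myeloid factors Cebpa (37.2 and 14.0 CPM) and Klf4 (64.7 and 35.3 CPM). Spi1, which encodes PU.1, was 1.69-fold and 3.76-fold higher and so fell short of the rule in replicate 1. Id2, a repressor of B cell and pDC fate, was at 443 and 406 CPM in HSPC1, 0.844 and 1.501 times the rest.

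Cluster DC1, the only E16.5 code for DCs, had 9 and 56 cells and serves as the nearest neighbour by name. Its level of H2-Aa was higher, at 8063 and 6857 CPM, as was that of Irf8, at 1769 and 1922 CPM. Clec9a was at 228 and 179 CPM in DC1. In return, DC1 had 0 and 1.23 CPM of Hoxa9, and Clec10a and Mpo had 0 UMIs there in both libraries. Flt3 was similar, at 79.3 and 88.5 CPM in DC1. Because both clusters were drawn from these genes, these values are not tested.

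**Figure D2:**
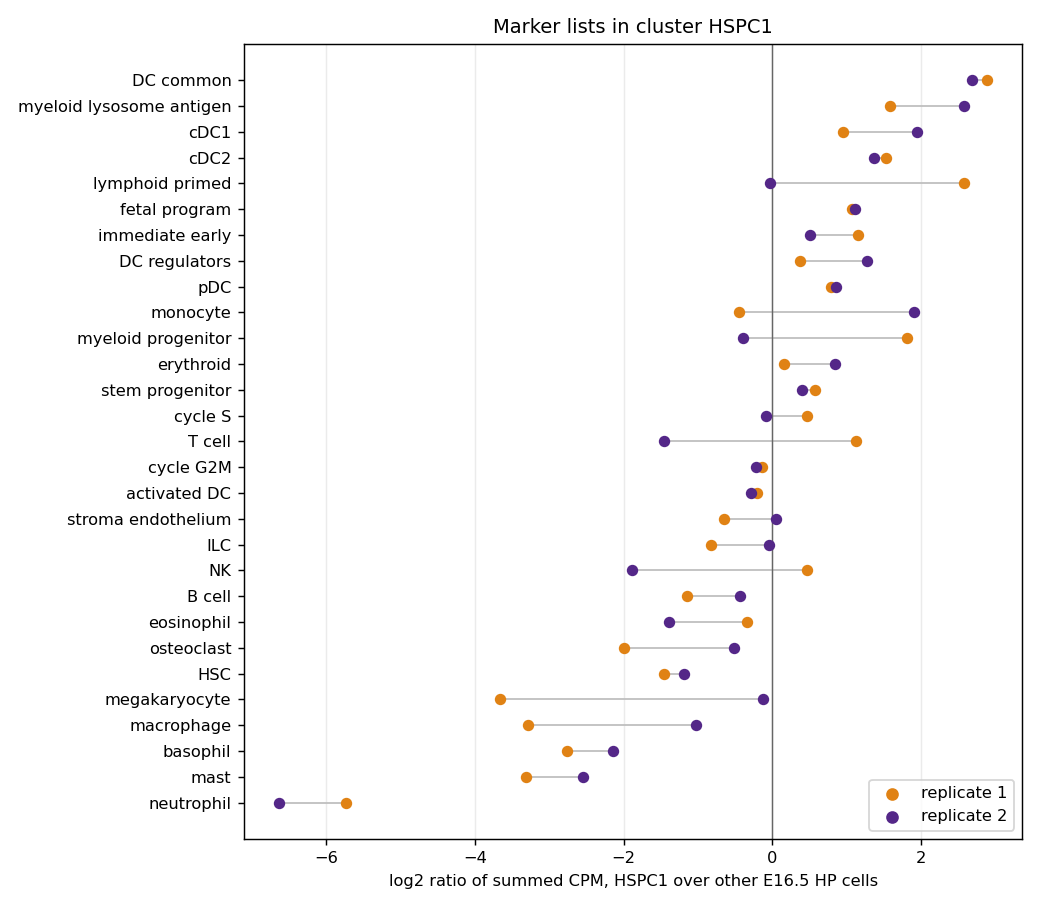
Summed CPM of 29 marker lists in HSPC1 over the other E16.5 HPs, as log2 ratios, for replicate 1 (orange) and replicate 2 (purple), with the list of Flt3, Hoxa9 and Cd209a left out. DC common is highest in both libraries and neutrophil lowest, while lymphoid primed, monocyte, myeloid progenitor, T cell, NK, cycle S and stroma endothelium lie on different sides of 0 in the 2 libraries.

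Genes of mature myeloid cells were mostly low. All 10 mast cell genes that passed the minimum were lower, with the list at 0.100 and 0.171 times the rest, and the same held for all 4 neutrophil genes, at 0.0188 and 0.0101 times, of which 0 were counted without shared barcodes. The chymase Cma1 still had 1725 and 2278 CPM in HSPC1 against 18464 and 13682 CPM in the rest, and the protease Cpa3 had 1129 and 1140 CPM. S100a9, an alarmin of granulocytes, was at 0 and 1.25 CPM against 266 and 523 CPM, but the level of the rest came from 4 cells (0.759%) in replicate 1 and 306 cells (6.67%) in replicate 2. Of 8 macrophage genes tested, 5 were lower, among them the complement gene C1qb (68.3 and 28.7 CPM against 715 and 69.9 CPM). Of the 8 monocyte genes tested, Ccr2 (253 and 81.8 CPM against 109 and 12.5 CPM), Klf4 and S100a4 were higher, and the fractalkine receptor Cx3cr1 was lower.

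Granule genes of early myeloid progenitors differed between the 2 libraries. Mpo, the peroxidase of neutrophil and monocyte precursors, was at 617 and 260 CPM in HSPC1, 13.5-fold and 1.68-fold the rest. Elane, a granule protease, was at 98.3 and 29.3 CPM, 2.02 and 0.167 times the rest. Without shared barcodes, Mpo in replicate 1 was at 5.53 CPM, against 787 CPM in the 20 cells with a shared barcode. Cpa3 differed in the same way, with 11.1 CPM against 1439 CPM. The 20 cells were also deeper than the 13 others, with a median of 29679.5 UMIs against 13829 UMIs. The parts of depth and of the shared barcodes in these values were not tested.

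Lysosomal and antigen-handling genes went with MHC class II. Of 12 tested, 9 were higher, and the list summed to 3.00 and 5.97 times the rest. Napsa, an aspartic protease, was 7.21-fold higher in both libraries, at 434 and 439 CPM. Ctsh, a cathepsin, was 4.59-fold and 20.8-fold higher, at 334 and 178 CPM. By the smaller of the 2 library folds, over genes that reached 100 CPM in the higher group of both libraries, which leaves out Flt3, Hoxa9 and Cd209a, Cd74, H2-Eb1, H2-Aa, H2-DMa and H2-Ab1 led, and Napsa, Hmga2 and Bcl11a followed. Hmga2, a chromatin protein of fetal stem cells, was at 225 and 176 CPM against 38.3 and 21.3 CPM. The lowest genes by the same rule were S100a9, S100a8 and the protease inhibitor Stfa1, and then mast cell genes. In replicate 1 the UMIs of the first 3 in the rest came from 4, 10 and 9 cells.

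In single cells Flt3 overlapped with both other marker genes, whereas Hoxa9 and Cd209a were not found together. Before any thinning, a UMI of Flt3 was found in 121 of 198 cells (61.1%), of Hoxa9 in 66 (33.3%) and of Cd209a in 28 (14.1%). For Cd209a these were 12 of 33 cells (36.4%) in replicate 1 and 16 of 165 (9.70%) in replicate 2. Flt3 and Hoxa9 met in 49 cells, and Flt3 and Cd209a in 22. Hoxa9 and Cd209a met in 0 of 198 cells, for which the exact interval reaches 1.85%. After each cell was thinned to 5000 UMIs, which left out 0 cells, Flt3 was seen in 29.8% (23.5 to 36.7%), Hoxa9 in 16.2% (11.3 to 22.0%) and Cd209a in 9.60% (5.88 to 14.6%), again with 0 cells holding both Hoxa9 and Cd209a.

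These shares were set against those of the T cell and mast cell clusters, since free RNA gives stray UMIs. In the T cell clusters 7 of 2159 cells held both Flt3 and Hoxa9, and 98 held Hlf. Whether the UMIs in these clusters were stray was not tested. In the T cell clusters 27 of 2159 cells (1.25%) held Flt3, 52 (2.41%) Hoxa9 and 2 (0.0926%) Cd209a. In the mast cell clusters 12 of 2063 (0.582%) held Flt3, 4 (0.194%) Hoxa9 and 0 Cd209a. The median depth was 21983 UMIs in the T cell clusters and 17378 UMIs in the mast cell clusters, close to that of HSPC1. Cells with Hoxa9 also held Ccr9 in 35 cases and Mpo in 32, and Hlf met Hoxa9 in 22 cells. Cd209a met Ccr9 in 1 cell, Mpo in 3 cells and Hlf in 0. In each library on its own, Cd209a met Hoxa9, Hlf and Ccr9 in at most 1 cell each. These are small numbers, since in replicate 1 only 12 of 33 cells held Cd209a, 6 held Hlf and 6 held Ccr9. The overlap expected from the share of each gene was not computed, for these pairs or for those with Flt3.

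HSPC1 was then split into groups of cells by clustering its 198 cells alone, without cell cycle, ribosomal or mitochondrial genes. At the chosen resolution it gave 7 groups, each described by its own leading genes. They were chosen from these same genes, and their number moved from 4 to 9 with the resolution. Groups 1 to 4 held cells of both libraries, while groups 5, 6 and 7 held cells of replicate 2 alone and may be particular to that library.

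Group 1 (16 and 33 cells) carried the antigen-presenting genes. It was led by the receptor Slamf7 (218 CPM against 10.5 CPM in the other HSPC1 cells), Clec10a, Cd209a (277 CPM against 16.9 CPM), Olfm1 and H2-Ab1. The DC list summed to 41281 CPM, the highest of the groups, and Itgax was at 83.3 CPM. Hoxa9 and Mpo had 0 UMIs. Its cells were the shallowest, with a median of 10783 UMIs. Its profile over 8069 genes correlated best with P0 cluster DC3 (Spearman rho 0.876) and next with E16.5 cluster DC1 (0.873). Over the 250 genes of the marker lists the E18.5 monocyte cluster Mono1i came first (0.742), before DC3 (0.720) and DC1 (0.712).

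The progenitor list summed to 1624 CPM in group 2 (5 and 16 cells), 1836 CPM in group 3 (9 and 31 cells) and 1780 CPM in group 7, and to at most 710 CPM in the other groups. The leading genes of group 2 included Ctsg, a granule protease (664 CPM), the globin Hbb-bt, Mpo (1379 CPM against 156 CPM) and Ap3s1, and held the most Hlf (85.1 CPM) of the groups. Of its 21 cells, 15 held Hlf and 12 held Hoxa9. Over all genes group 2 correlated best with E18.5 cluster MyP1 (0.931), closely followed by P0 clusters HSPC3 and HSPC4 (both 0.928). Over the marker lists P0 clusters HSPC2 and HSPC3 (both 0.872) came before MyP1 (0.859).

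Group 3 was led by Stc1, a secreted glycoprotein, the B cell factor Ebf1, the chemokine Ccl4, the interleukin-12 subunit Il12a and Pira2. It held the most Flt3 (187 CPM) and Hoxa9 (135 CPM) of the groups. Ccr9 stood at 284 CPM, Notch1 at 342 CPM, Il7r at 199 CPM and Bcl11a at 583 CPM. Of its 40 cells 34 held Flt3, 31 held Hoxa9 and 27 held Ccr9, while Cd209a had 0 UMIs. Group 3 correlated best with P0 cluster LymP (0.933).

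Groups 4 and 6 combined genes of different lineages. Group 4 (3 and 9 cells) had 47523 CPM of the mast cell list, with Cma1 at 22847 CPM, beside 20755 CPM of the DC list. Group 6 (15 cells) was led by Cd3e, a chain of the T cell receptor complex (223 CPM against 0.275 CPM), Thy1, Bcl11b, Gzma and Ptcra. It also had 10135 CPM of the DC list and 3524 CPM of the mast cell list. Their median depths were 25056 and 30511 UMIs, against 17647 UMIs for HSPC1 of replicate 2, and those of groups 2 and 7 were 25371 and 27084 UMIs. Whether cells of these groups were doublets was not tested beyond the caller named above, which marked none of them.

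Group 5 (26 cells) and group 7 (35 cells) completed the cluster. Group 5 was led by Irf8 (721 CPM against 52.9 CPM), Id3, the transglutaminase F13a1, Elane and Cdkn3, with Batf3 at 136 CPM (165 CPM in group 1), 1 UMI of Clec9a and the DC list at 6910 CPM. It had the highest sum of the monocyte list of the groups (2395 CPM) and 2614 CPM of the myeloid progenitor list, with Lyz2, a lysozyme, at 1311 CPM and Prtn3, a granule protease, at 1263 CPM. Its profile was about equally near to E16.5 cluster DC1 and P0 cluster DC3 (both 0.847) and to P0 cluster HSPC4 (0.843). Over the marker lists, DC3 (0.774) and Mono1i (0.733) came first. Group 7 was led by the interferon-induced Isg15, Dym, the T cell receptor constant chains Trbc1 (412 CPM) and Trbc2 (2268 CPM), and Dnmt3b. It had 44.1 CPM of Hoxa9 and 91.2 CPM of Ccr9, and over all genes correlated best with E16.5 cluster TCell2 (0.940). Over the marker lists TCell2 (0.817) and P0 cluster LymP (0.816) were nearly equal. Trbc2 was seen in 97.1% of the cells of group 7, whereas the receptor complex genes that led group 6 were not among its leading genes.

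**Figure D3:**
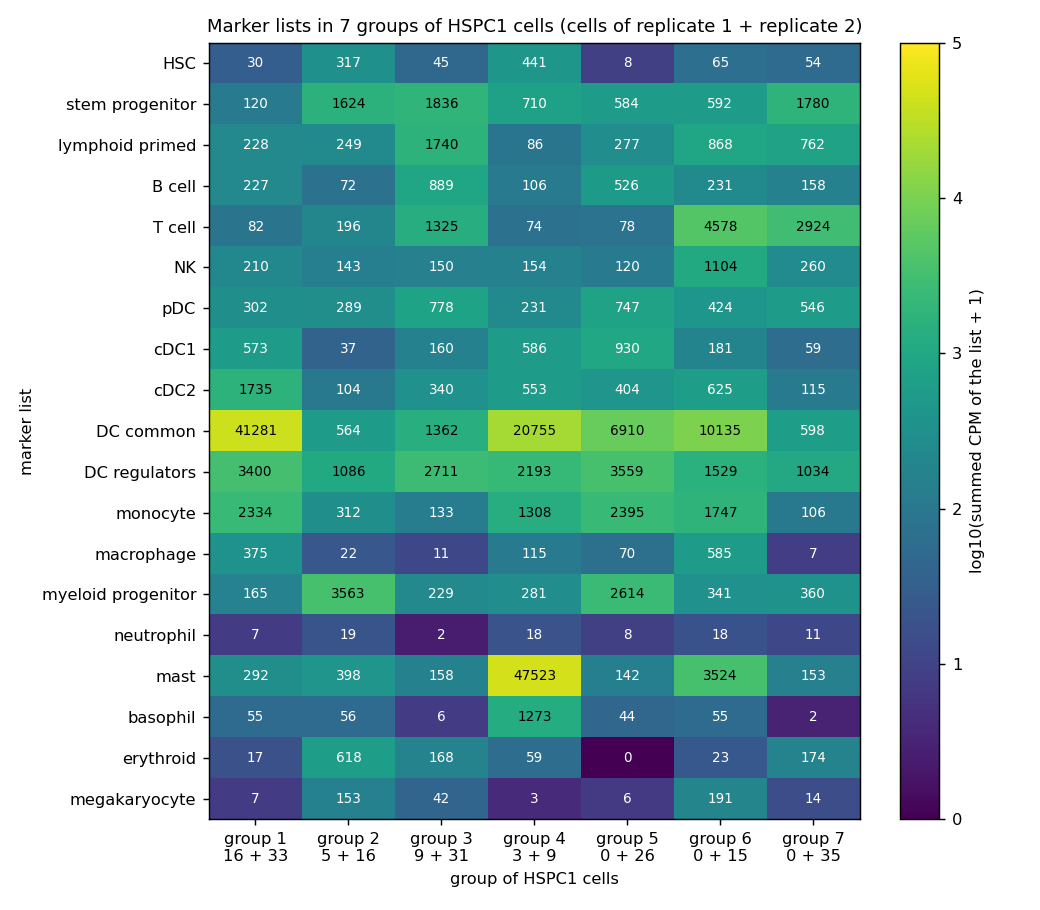
Summed CPM of 19 marker lists in the 7 groups of HSPC1 cells, printed in each field and coloured on a log10 scale, with the cells of replicate 1 and replicate 2 under each group. The DC list is highest in group 1 (41281 CPM), the mast cell list in group 4 (47523 CPM), the lymphoid-primed list in group 3 (1740 CPM) and the myeloid progenitor list in group 2 (3563 CPM).

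Without shared barcodes, the 13 remaining cells of replicate 1 comprised 10 cells of group 1 and 3 of group 3. The 20 cells with a shared barcode fell into groups 1 to 4, with 6, 5, 6 and 3 cells. All cells of groups 2 and 4 from replicate 1 thus had a shared barcode. In replicate 2, which had no such HSPC1 cell, group 2 held 16 cells (9.70% of HSPC1) and group 4 held 9 (5.45%).

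Surface antibody signal was not used for the codes, although it comes from the same droplets. For each antibody a centered log-ratio (CLR) was taken over all cells of its library, and cells with a CLR over 1 are called positive here. With 2 libraries an exact paired permutation test cannot go below p = 0.5, so that the values are compared without a test. CD48, a marker gained as stem cells turn into progenitors, was positive in 26 of 33 HSPC1 cells (78.8%, 61.1 to 91.0%) and 68 of 165 (41.2%, 33.6 to 49.1%), against 34.4% and 29.6% of the rest. CD135, the product of Flt3, was positive in 36.4% (20.4 to 54.9%) and 9.70% (5.64 to 15.3%), against 13.9% and 8.42% of the rest. Both were higher in both libraries, with mean CLR differences of 0.654 and 0.239 for CD48 and 0.273 and 0.0958 for CD135. In replicate 2 the CD135 share of the rest lay within the interval of HSPC1. The groups of HSPC1 were not alike in this library. CD48 was positive in 13 of 15 cells of group 6 (86.7%) and 23 of 35 of group 7 (65.7%). In groups 1 to 5 it was positive in 39.4%, 31.2%, 22.6%, 44.4% and 11.5%, against 29.6% of the rest. CD135 was positive in 5 of 15 cells of group 6 (33.3%) and in 0% to 15.2% of the other groups.

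Markers of stem cells gave no such shift. Sca-1 was positive in 15.2% and 17.6% of HSPC1 against 18.6% and 12.9% of the rest. CD150, encoded by Slamf1, was positive in 9.09% and 11.5% against 19.2% and 11.6%. The combination Sca-1+CD135-CD48-CD150+ that the study used for immunophenotypic long-term stem cells occurred in 0 of 33 and 0 of 165 HSPC1 cells, which allows shares of up to 10.6% and 2.21%, and in 1.90% and 0.610% of the rest. Antibody counts were low in replicate 2, where HSPC1 had medians of 10 for CD48 and 1 for CD135, CD150 and Sca-1.

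A wider panel was read in replicate 2 alone. CD90.2, a T cell antigen encoded by Thy1, was positive in 8.48% of HSPC1 and 42.1% of the rest, and CD16/32, the Fc receptors of myeloid and mast cells, in 9.09% and 43.4%. CD115, the receptor of colony-stimulating factor 1 encoded by Csf1r, was positive in 15.2% and 6.13%. The groups differed in this signal, which had not been used to form them. CD16/32 was positive in 9 of 9 cells of group 4, 26.7% of group 6 and 0% to 3.85% of groups 1, 2, 3, 5 and 7. CD90.2 was positive in 86.7% of group 6, 11.1% of group 4 and in no cell of the other groups. CD27, a co-stimulatory receptor of lymphoid progenitors and T cells, was positive in 71.4% of group 7 and in no cell of group 1. CD115 was most often positive in group 5 (34.6%), and CD150 in group 2 (31.2%).

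**Figure D4:**
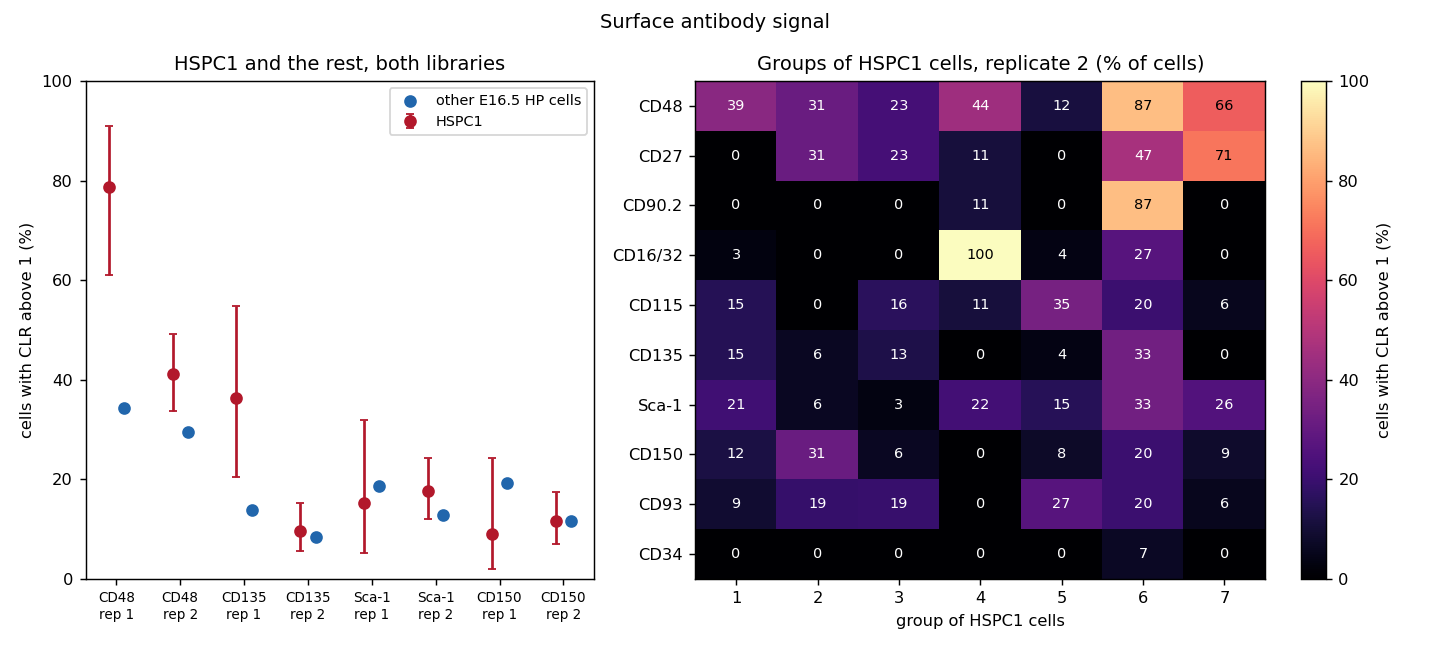
Left, share of cells with a CLR above 1 for 4 antibodies in HSPC1 (red, with exact 95% intervals) and the other E16.5 HPs (blue) of both libraries. Right, the same share in the 7 groups of HSPC1 cells of replicate 2, where CD16/32 is highest in group 4 (100%) and CD90.2 in group 6 (86.7%).

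Over 8069 genes, the 2 libraries of HSPC1 were more like each other (Spearman rho 0.913) than like any cluster of another stage. By the mean over both libraries, the E18.5 cluster HSPC2 (0.864 and 0.896) and the P0 clusters LymP (0.860 and 0.898) and HSPC3 (0.858 and 0.898) came first with nearly equal values. Among clusters of other stages, the P0 clusters DC3 and Mono1 (both 0.869) led for replicate 1 and LymP for replicate 2. The E16.5 T cell clusters TCell3 and TCell2 were nearer to replicate 2 (0.903 and 0.902) than LymP was, with 0.785 and 0.786 for replicate 1. Over the 250 genes of the marker lists, E18.5 cluster MyP1 (0.735 and 0.790) and P0 cluster DC3 (0.773 and 0.722) came first by the mean, and E16.5 cluster TCell3 had 0.601 and 0.808. The replicates differed in their neighbours, since DC3 ranked 4 for replicate 1 and 23 for replicate 2 over all genes. These ranks count the HSPC1 profiles of both libraries as the first 2. Genes within a library are not independent, and no test was made.

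HSPC1 was last compared with the clusters coded HSPC at later stages, which hold 388 (E18.5), 1505 (P0) and 629 cells (adult). Counts were summed per library and tested with edgeR's quasi-likelihood test, in which the E16.5 pair alone gives the spread and the lone libraries are assumed to vary like it, with 1 residual degree of freedom. That spread may be technical, so that each p measures a difference between these libraries and not between animals of the stages. The test compares clusters as they were coded at each stage, and the 3 comparisons share the E16.5 libraries. E18.5 and P0 also had separate DC clusters, whereas no adult HP cluster was coded DC. At an adjusted p under 0.05, 359 of 12163 genes (2.95%) were higher and 120 (0.987%) lower at E16.5 than at E18.5. Against P0, 465 (3.82%) were higher and 167 (1.37%) lower, and against the adult 528 (4.34%) and 437 (3.59%).

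Antigen-presenting genes were higher than in the HSPC clusters of the 3 later libraries. Of 12 DC genes tested, 10 were higher than at E18.5, 10 than at P0 and 9 than in the adult, and 0 were lower. H2-Aa had 2952 and 900 CPM in the E16.5 libraries against 1.10, 5.71 and 7.16 CPM at the 3 later stages. These sums are not levels of the whole cluster, since 3620 of the 5346 H2-Aa UMIs came from the 49 cells of group 1, and groups 2, 3 and 7 stood at 5.11, 1.57 and 1.03 CPM with 0 UMIs of Cd209a. The log2 differences of H2-Aa were 10.74 ± 0.90, 8.31 ± 0.79 and 7.81 ± 0.78. In the stage comparisons each value after ± is the size of the log2 difference divided by the square root of the test's F statistic. It is not a measured spread. Cd209a had 182 and 22.5 CPM at E16.5 and 0.0998, 0.160 and 0.183 CPM afterwards, with log2 differences of 9.72 ± 0.82, 9.04 ± 0.70 and 8.69 ± 0.83. Batf3 (45.5 and 59.9 CPM) and Id2 (443 and 406 CPM) were also higher at E16.5 than at all 3 later stages, where they stood at up to 0.542 and 19.9 CPM. Of 10 cDC2 genes, 8 were higher than at each later stage and 1 was lower than in the adult. Without shared barcodes 8, 8 and 7 of the DC genes were called.

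Stem cell genes went the other way. Of 11 tested, 5 were lower at E16.5 than at E18.5, 5 than at P0 and 3 than in the adult, and 0 were higher. Hlf had 19.2 and 21.2 CPM at E16.5 against 157, 114 and 115 CPM, a log2 difference of -2.94 ± 0.42, -2.54 ± 0.42 and -2.73 ± 0.42 (edgeR adjusted p = 3.88e-10, 9.74e-08 and 9.51e-09). The Hlf sums are not levels of the whole cluster, since 50 of the 84 UMIs came from the 21 cells of group 2, at 85.1 CPM. Groups 4 and 5 had 0 UMIs of Hlf. Mecom had 0 and 1.87 CPM against 34.9, 27.0 and 27.7 CPM, and its log2 differences were -4.59 ± 0.60, -4.29 ± 0.60 and -4.50 ± 0.61. Procr, the endothelial protein C receptor, was lower than at E18.5 and P0 but did not pass against the adult (edgeR adjusted p = 0.142). Of the 12 genes of the separate progenitor list, 4 were lower than at E18.5, 4 than at P0 and 4 than in the adult, and 0 were higher. Its members Erg and Angpt1, a stem cell transcription factor and a niche ligand, were lower than at all 3 later stages. Without shared barcodes 2, 1 and 2 of the stem cell genes were called lower.

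Flt3 and Hoxa9 behaved differently from the third marker gene. Flt3 had 127 and 56.5 CPM at E16.5 and 127, 74.1 and 157 CPM later, and no difference passed the test (edgeR adjusted p = 0.776, 1.00 and 0.0818). Hoxa9 was lower than at E18.5, with 34.8 and 40.3 CPM against 121 CPM (log2 difference -1.67 ± 0.39, edgeR adjusted p = 9.38e-04), and did not pass against P0 (62.0 CPM) or the adult (50.3 CPM). The call against E18.5 was lost with DESeq2 and without shared barcodes. For Flt3, replicate 1 lay within the later range and replicate 2 below it, and for Hoxa9 both libraries lay below it.

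P0 had a separate cluster coded LymP (388 cells) that was left out of its HSPC sum, and no other stage had that code. Lymphoid-primed genes differed by stage in these sums. Of 12 tested, 0 were higher and 1 lower than at E18.5, 6 higher and 0 lower than at P0, and 1 higher and 3 lower than in the adult. Ccr9 had 86.3 and 69.9 CPM at E16.5 against 95.5 (E18.5), 5.49 (P0) and 3.67 CPM (adult), and was higher than at P0 (log2 difference 3.74 ± 0.47) and the adult (4.15 ± 0.53). Il7r and Rag1 were higher than at P0 and did not pass against E18.5 or the adult. Dntt had 0 UMIs in both E16.5 libraries, and 3.79 (E18.5), 0.0638 (P0) and 336 CPM (adult) later.

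**Figure D5:**
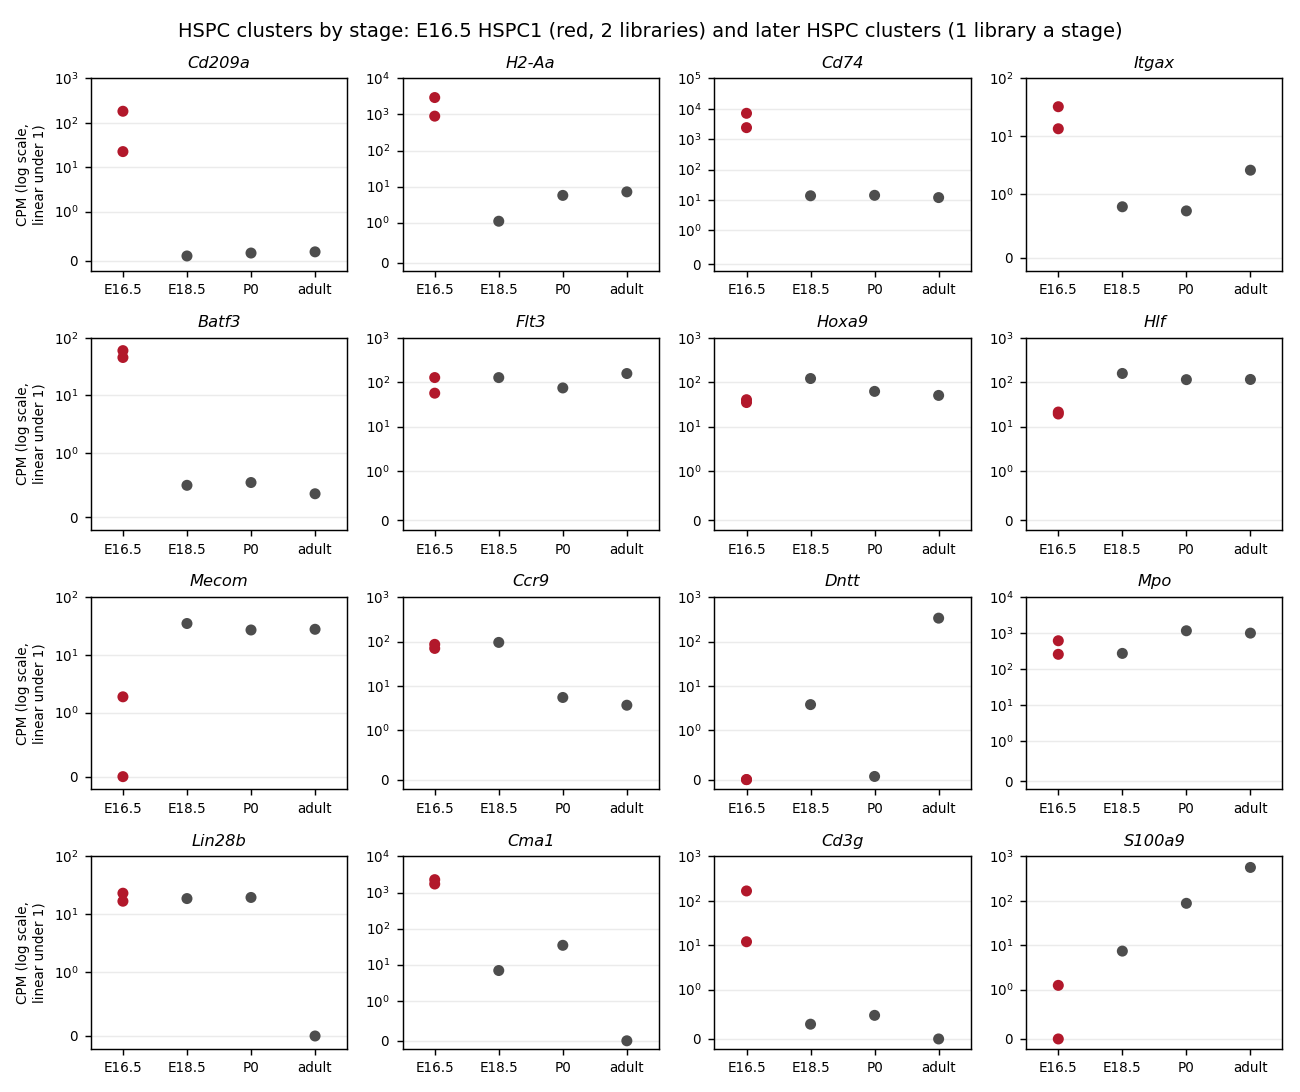
CPM of 16 genes in HSPC1 at E16.5 (red, 2 libraries) and in the HSPC clusters of E18.5, P0 and the adult (grey, 1 library each), on an axis that is logarithmic above 1 CPM and linear below. Cd209a, H2-Aa, Cd74, Itgax and Batf3 are highest at E16.5, Hlf and Mecom lowest.

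Mast and T cell genes were also higher in HSPC1 than in later HSPC clusters. Of 10 mast cell genes, 6 were higher than at each later stage. Of 10 T cell genes, 9 were higher than at E18.5, 9 than at P0 and 8 than in the adult. Cma1 had 1725 and 2278 CPM at E16.5, 6.88 CPM at E18.5 and 34.4 CPM at P0. It had 0 UMIs in the adult, which makes the summed E16.5 level at least 3930-fold higher against a floor of 3 UMIs in that library. That sum is not a level of the whole cluster, since 7720 of its 8738 UMIs came from the 12 cells of group 4 and 732 from group 6, and the other groups stood at 56.2 to 165 CPM. In the E16.5 T cell clusters Cma1 was at 841 CPM and was seen in 83.6% of cells, against 76.3% of HSPC1 cells, at median depths of 21983 and 18372 UMIs. Cd3g, a chain of the T cell receptor complex, had 12.0 and 167 CPM at E16.5 and at most 0.478 CPM later. The T cell list summed to 215.7 CPM in replicate 1 and 1738 CPM in replicate 2, against 216.5 CPM at E18.5. Its sum was thus above E18.5 in replicate 2 alone, and Cd3e, Bcl11b and Ptcra had 0 UMIs in replicate 1. At P0 and in the adult the list summed to 64.28 and 22.94 CPM. Without groups 4, 6 and 7, the mast cell counts were 4, 1 and 3 and the T cell counts 2, 4 and 4, whereas 10, 11 and 10 DC genes were higher. Cpa3 lost its side there, with log2 differences of -0.20 against P0 and -0.82 against the adult in place of 3.87 ± 0.59 and 3.26 ± 0.57.

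All 3 later stages also had clusters coded MyP, which were left out of the HSPC sums. Myeloid granule genes fell on different sides by stage in these sums. Of 10 early myeloid genes, 5 were higher than at E18.5, 5 lower than at P0 and 7 lower than in the adult. Mpo had 617 and 260 CPM at E16.5 against 275, 1168 and 1005 CPM, and was lower than at P0 (log2 difference -1.504 ± 0.48, edgeR adjusted p = 0.0387) and the adult (-1.46 ± 0.48, 0.0353). Without P0 cluster HSPC4, which held 112 of the 1505 cells, 0 of these genes were lower than at P0. As for Hlf, the Mpo sums are not levels of the whole cluster. Of the 1347 Mpo UMIs of HSPC1, 810 came from group 2 and 393 from group 5, and groups 1 and 4 had 0. Without shared barcodes Mpo in replicate 1 was at 5.53 CPM. S100a9 was lower than at all 3 later stages, at 0 and 1.25 CPM against 7.38, 88.0 and 567 CPM. Of 6 genes of the fetal program, 6 were higher than in the adult, 1 than at P0 and 0 than at E18.5. Lin28b, the RNA-binding protein that marks fetal blood, had 16.8 and 23.1 CPM at E16.5, 18.7 and 19.5 CPM at E18.5 and P0, and 0 UMIs in the adult. Hmga2 had 225 and 176 CPM against 356, 263 and 38.0 CPM. Without shared barcodes 2 of the 6 were called against the adult.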

How the data were processed

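The authors deposited raw UMI counts per gene and cell, raw antibody counts and a table of cells with library, cluster code, hscScore (a score of likeness to stem cells), phase and the fraction of mitochondrial UMIs. Per the study's methods, reads were counted with Cell Ranger 3.1.0 on mm10 and clustered with Seurat 3.1.5 in R 4.0, after removal of shallow cells, of cells rich in mitochondrial UMIs and of the cells with the most UMIs. The matrix holds 20275 genes.

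Here, counts were summed per library and cluster. Genes with a mean of at least 10 CPM and a 2-fold difference in both libraries were counted. Groups within HSPC1 were made with scanpy 1.11.5 (1000 variable genes, 10 principal components, 15 neighbours, Leiden resolution 0.6). Stages were compared with edgeR 4.0.16 in R 4.3.3 (TMM, filterByExpr, glmQLFit, Benjamini-Hochberg over all genes), with 1 residual degree of freedom, and with DESeq2 1.42.0 as an alternative. Tested on simulated data of 11810 genes, the test found 82% of 4-fold and 20% of 2-fold changes against E18.5, 82% and 10% against P0, and 74% and 18% against the adult. All libraries, the lone ones included, were simulated with the spread fitted to the data. The changed genes were not drawn from those with the lowest counts. These shares thus hold only if the lone libraries vary like the E16.5 pair, and they do not cover genes of low counts. The members and the 30 marker lists (284 genes) were chosen with earlier results of these data known. Named were list members, genes of the antibody targets, the leading genes of HSPC1 and its groups, and genes past the stage threshold. Intervals are exact 95% intervals, from Python 3.11.15 with scipy 1.17.1. Some genes of the lists and groups are not reported here.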

Additional observations from a re-analysis of the deposited data

How the results depend on the processing

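The number of genes higher in HSPC1 (291) was 718 with no minimum, 73 at 50 CPM, 193 with every other cluster weighted equally, 86 at 4-fold and 386 to 783 when 1 library was left out (783 without replicate 2). The number lower (268) was 482, 92 and 104 with no minimum, at 50 CPM and at 4-fold, and 344 to 526 with 1 library (526 without replicate 2). Equal weights left 6 DC, 3 cDC2 and 0 neutrophil genes called, 7 B cell genes lower, and Cst3 at a log2 fold of -0.035. With 1 library left out the counts were 7 to 11 DC regulators and 1 to 2 stem cell genes (11 and 1 without replicate 1), and 3 to 9 lymphoid-primed and 4 to 6 progenitor genes (9 and 6 without replicate 2). Without shared barcodes 0 stem cell and 0 neutrophil genes were called. Thinning to 10000 UMIs gave Flt3 in 44.8% of cells and no thinning 61.1%, and Hoxa9 then 33.3%. With 1 library left out the shares were 24.8 to 54.5% for Flt3, 9.09 to 17.6% for Hoxa9 and 6.06 to 27.3% for Cd209a (54.5%, 9.09% and 27.3% without replicate 2). On a log2 scale of counts per 1000 the antibody differences averaged 1.16 (CD48), -0.51 (CD150), 0.40 (CD135) and -0.21 (Sca-1), in place of CLR differences of 0.447, -0.0519, 0.184 and 0.0394. The correlation with E18.5 HSPC2 averaged 0.880 and was 0.829 at 50 CPM, where P0 HSPC2 (0.839), LymP and HSPC3 were nearer. By Pearson's r P0 HSPC3 (0.8887) came just before it (0.8884). A resolution of 0.3 gave 4 groups.

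Between stages, DESeq2 called 213 higher and 18 lower against E18.5, 271 and 31 against P0, and 251 and 142 against the adult, with 2, 2 and 2 stem cell genes lower and 4, 5 and 3 cDC2 and 2, 3 and 4 T cell genes higher. Without shared barcodes edgeR called 114 and 4, 145 and 18, and 136 and 49. At an unadjusted p under 0.05 edgeR called 1420, 1437 and 2338 genes. Trbc2 turned to -0.26 against E18.5 without replicate 2 (2.61 without replicate 1), Cpa3 to -0.20 (P0) and -0.82 (adult) without groups 4, 6 and 7, and Elane to 0.51 against P0 without HSPC4. The causes were not tested. The settings without shared barcodes, without groups 4, 6 and 7 and without HSPC4 were chosen after seeing the data. No paired analysis was possible because the stages share fewer than 2 replicate numbers and the other results come from no test. HSPC1 alone at every stage was not run, since no later stage holds that code. Of the values of single genes under the alternatives, 917 of HSPC1 against the rest and 750 between stages kept their direction and their call, and 116 and 78 lost the call. Without shared barcodes replicate 1 kept 13 cells, 10 of group 1 and 3 of group 3.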

Other observations

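The deposited hscScore, a score of likeness to stem cells computed by the authors from mRNA, did not follow the stem cell genes within HSPC1. Its mean was 0.131 ± 0.0729 (SD over 49 cells) in group 1, which held MHC class II genes and 0 UMIs of Hoxa9, and 0.124 ± 0.0995 (40 cells) in group 3. In group 2, which held the most Hlf, it was 0.0519 ± 0.0916 (21 cells), and in group 7 it was 0.00432 ± 0.00989 (35 cells). Over HSPC1 it averaged 0.0712 and 0.0754 in the 2 libraries, against 0.0630 and 0.0467 in the other E16.5 HPs. The HSPC clusters of later stages averaged 0.0453 (E18.5), 0.048 (P0) and 0.107 (adult). The E16.5 means thus lay above E18.5 and P0, whereas Hlf and Mecom were lower at E16.5 than at all 3 later stages. The median depth was lowest in groups 1 and 3 (10783 and 14772.5 UMIs) and 27084 UMIs in group 7, and its part in these values was not tested.

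Cell cycle phases as deposited put 51.5% and 32.7% of HSPC1 in G1, 36.4% and 44.9% in S and 12.1% and 22.4% in G2M. The other E16.5 HPs had 45.0% and 24.8% in G1, 30.4% and 43.8% in S and 24.7% and 31.4% in G2M. The G2M share was thus lower, and the G1 and S shares higher, than in the rest in both libraries. Of 12 S phase and 10 G2M phase genes tested, 0 differed by 2-fold in both libraries, a rule that can miss a moderate shift. The median log2 folds were 0.471 and 0.0303 for the S phase genes and -0.237 and -0.239 for the G2M phase genes. The difference in phases was not tested.

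Ighm, the heavy chain gene of immunoglobulin M, stood at 171 and 147 CPM in HSPC1 against 69.6 and 42.3 CPM in the rest, while 4 of the other 7 B cell genes tested were lower, among them Vpreb3 at 2.40 and 7.80 CPM. Klrd1, a receptor chain of natural killer cells, was at 99.5 and 61.5 CPM against 7.76 and 10.0 CPM, and the killer cell gene Ncr1 had 0 UMIs in both libraries.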
